A study of Homo sapiens with 4 samples.

Results

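The genes that encode the proteins of the cytosolic ribosome were followed in A549 cells, an established line from a human lung adenocarcinoma, after transduction with a virus that carried FCN3. FCN3 encodes ficolin-3, a secreted lectin of innate immunity. The genes were chosen by a rule on their symbols, with earlier results of these data known. All RPL, RPS and RPLP genes with a number and an optional A or X were taken, with RPSA, and the RPS6K kinases, the Y-linked copies of RPS4 and the mitochondrial ribosomal proteins were left out. This gave 77 of the 25192 genes in the tables, 31 for the small (40S) and 46 for the large (60S) subunit. RNA was sequenced from 4 libraries, 2 from cells given the control empty virus (EV, replicates 1 and 2) and 2 from cells given the FCN3 virus (replicates 1 and 2). All cells received a pLZRS-IRES-GFP retrovirus, so the EV cells also carried a virus and expressed GFP, and the FCN3 protein had a V5 tag. RNA was taken at 48 h after infection. The labels do not say whether replicates were separate cultures or what a replicate number marks. Where libraries were compared within replicate numbers, p-values rest on how far the 2 pairs disagree. They do not measure the spread between libraries given the same virus. Either spread may be technical.

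Each ribosome holds 1 copy of nearly every one of these proteins, and cells make them in matched amounts. Their mRNAs are among the most abundant in a dividing cell. Nearly all begin with a C followed by a run of pyrimidines, the 5′ terminal oligopyrimidine (TOP) tract, through which LARP1 and the mTOR pathway control their translation. When ribosome assembly is disturbed, some of the free proteins bind MDM2, a ubiquitin ligase. RNA levels do not show translation.

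The libraries held between 16353554 and 35733735 expected counts, replicate 1 being the deeper in both groups. FCN3 was listed at 1 and 0 counts in the EV libraries and at 722388 and 448352 counts in the FCN3 libraries, which fits the labels. The epithelial keratins KRT8 and KRT18 lay between 1612 and 2789 transcripts per 1000000 (TPM) in every library. Of the other epithelial markers, KRT19 was at 32.6 and 52.4 TPM in EV and 87.2 and 97.9 in FCN3, EPCAM at 2.66 and 3.65 in EV and 1.09 and 1.61 in FCN3, and CDH1 at 6.06 and 9.53 in EV and 3.35 and 6.79 in FCN3. KRT8, KRT18 and KRT19 were called higher and EPCAM (log2 fold change −1.13) and CDH1 (−0.57) lower with FCN3 (edgeR, replicate number as a block), and their part in the results was not tested. Of the markers of other cell types, CD3E and PECAM1 were at 0 in every library, PTPRC, VWF, COL1A2 and PDGFRB did not exceed 0.19 TPM, CD14 lay between 0.32 and 1.99 TPM, and COL1A1 between 2.7 and 8.12 TPM. CDKN2A, which is deleted in A549, did not exceed 0.22 TPM.

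The start sites of the genes shared the sequence feature that the choice by symbol did not use. RefSeq promoters (GRCh38.p14) were matched by symbol. A single entry was found for 52 of the 77 genes, several for 10 and none for 15. In the 30 bases from 10 before to 20 after the annotated start, a run of at least 8 C or T on the sense strand was present in 45 of the 52 genes (86.5%), against 932 of the 7611 tested genes with a single entry (12.2%). The first transcribed base was a C in 82.7% of the 52 and in 11.7% of the 7611. The windows below are shown for the 4 genes with the largest rises, the gene that fell, the gene with the next lowest change and the genes with the longest runs among single entries. They are written 5′ to 3′ on the gene's own strand, with the longest pyrimidine run in capitals, and the 11th base is the annotated start. For RPL10 the entry with the longest run is shown (13 bases), and the longest runs at its other 2 entries were 5 and 4 bases.
RPL10 (1 of 3 entries, chrX:154398367-154398396, plus strand): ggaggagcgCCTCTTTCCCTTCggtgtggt
RPL12 (chr9:127451387-127451416, minus strand): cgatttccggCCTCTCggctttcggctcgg
RPS12 (chr6:132814559-132814588, plus strand): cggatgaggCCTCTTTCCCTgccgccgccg
RPLP0 (chr12:120201092-120201121, minus strand): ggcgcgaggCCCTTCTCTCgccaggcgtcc
RPS26 (chr12:56041908-56041937, plus strand): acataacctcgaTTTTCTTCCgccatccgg
RPS15 (chr19:1438386-1438415, plus strand): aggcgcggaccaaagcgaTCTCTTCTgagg
RPL7A (chr9:133348208-133348237, plus strand): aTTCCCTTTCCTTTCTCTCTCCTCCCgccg
RPL39 (chrX:119791611-119791640, minus strand): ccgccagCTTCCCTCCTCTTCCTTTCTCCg

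Over the 300-base promoters (250 bases before and 50 after the start, both strands), CGGAAG, the core that ETS factors such as GABPA bind, was present in 65.4% of the 52 genes and 34.9% of the 7611. The SP1 core GGGCGG was present in 59.6% and 72.6%, the YY1 word AAGATGGC in 11.5% and 5.99%, and TATAAA in 9.62% and 5.12%. CGGAAG can share bases with GGGCGG and with AAGATGGC. These are matches of letters and not sites.

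Of all counts, the ribosomal protein mRNAs together took 6.59% and 6.27% with EV and 6.99% and 6.82% with FCN3. The groups did not overlap, and FCN3 was the higher by 0.4 percentage points in the replicate 1 pair and 0.551 in the replicate 2 pair. The share was not tested, since an exact two-sided permutation of 4 libraries cannot go below p = 0.333. As TPM, which corrects for length, the share was 20.7% and 19.2% in EV and 21.1% and 20.3% in FCN3, and these ranges overlapped, although FCN3 was the higher by 0.4 percentage points in the replicate 1 pair and 1.11 in the replicate 2 pair. The 40S genes held 43.3% and 41.2% of that TPM in EV and 42.4% and 41.1% in FCN3, which also overlapped.

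Single genes differed 26.1-fold in level, from a mean of 272 TPM for RPL27A to 7097 TPM for RPLP1, with a median of 2344 TPM. RPLP1, an acidic protein of the stalk, was at 6370 and 7005 TPM in EV and 7347 and 7669 TPM in FCN3. It was followed by RPL41, the smallest of the proteins (mean 6300 TPM), RPS2 (5760), RPS16 (5616) and RPS27 (5514). The lowest were RPL13 (447), RPS23 (396), RPL34 (352), RPL22 (312) and RPL27A. Of these, RPL27A, RPL13, RPS23 and RPL22 were given mean transcript lengths of 4879, 4516, 3314 and 2085 bases in the tables, against a median of 713 for the 77 genes, and TPM divides by that length. The part of this in their low TPM was not tested. The order of levels was nearly the same in the 2 groups (Spearman's rho 0.99 across 77 genes, which share the libraries).

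**Figure D1:**
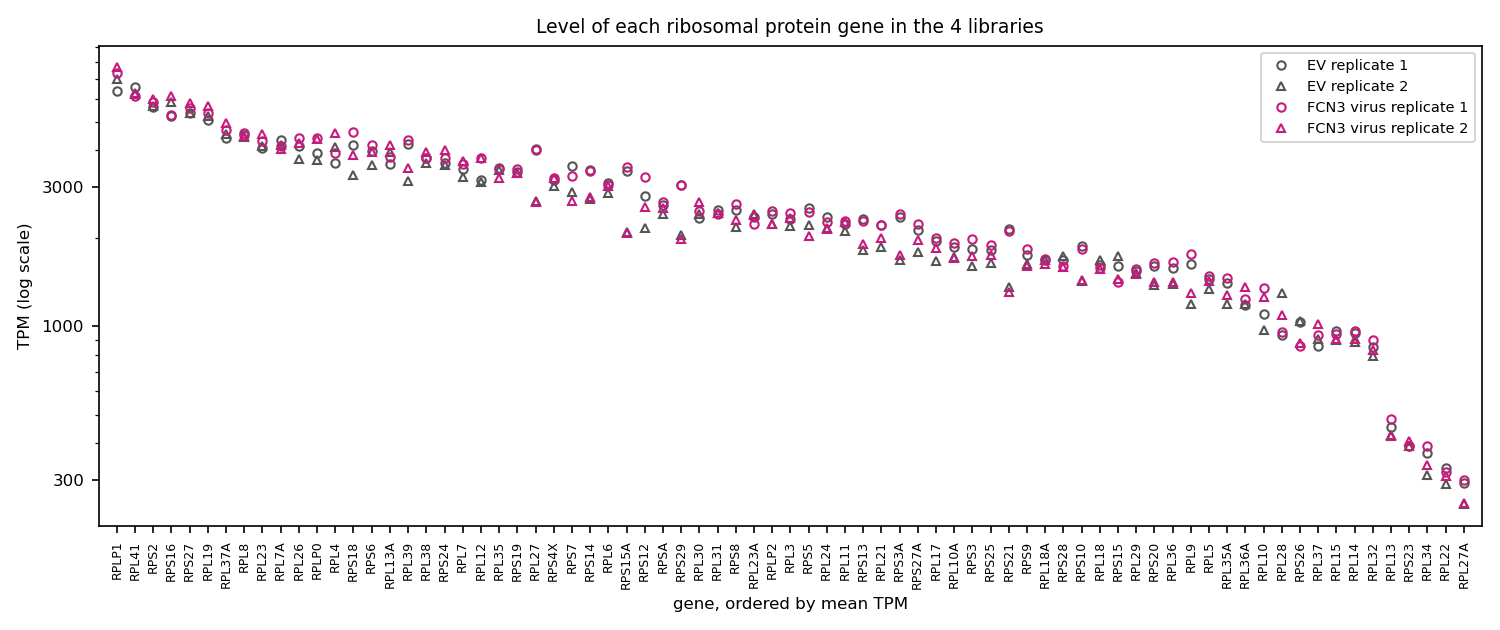
TPM (log scale) of 75 of the ribosomal protein genes in the 4 libraries, ordered from left to right by mean TPM, with circles for replicate 1, triangles for replicate 2, grey for EV and magenta for the FCN3 virus. Levels ran from a mean of 7097 (RPLP1) to 272 (RPL27A), and at RPL27, RPS15A, RPS29 and RPS21 the libraries lay further apart than at their neighbours.

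All 77 genes passed the filter on low counts, with 2136 to 100062 counts per gene and library, so counting depth did not limit them. Compared within replicate numbers (edgeR's quasi-likelihood test with the replicate number as a block, adjusted p under 0.01 over 14099 genes), 40 of the 77 genes were higher in FCN3-transduced cells and 1, RPS26, was lower. The background for these calls was 19.1% of all tested genes higher and 17.1% lower, while 51.9% of the ribosomal protein genes were called higher. The changes were small. Their median log2 fold change was 0.15 (1.11-fold), against 0.01 over all tested genes, with a middle range of 0.10 to 0.20 and extremes of −0.15 and 0.43. The medians in the replicate 1 and replicate 2 pairs were 0.15 and 0.16. In both pairs 68 of the 77 genes were higher with FCN3, against 41.7% of all tested genes, 2 were lower in both and 7 differed in sign. The 60S genes had 25 of 46 called higher and 0 lower (median 0.16), and the 40S genes 15 of 31 higher and 1 lower (median 0.14). The difference between subunits was not tested.

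The calls rested on the block. Without it, 0 genes were called in either direction, where the background was 0.738% higher and 0.227% lower. The lowest adjusted p of the 77 was then 0.059 (edgeR, RPL12). At an unadjusted p under 0.05 this fit left 11 of the 77 genes (14.3%), a smaller share than the 25.1% of all tested genes. DESeq2 called 19 genes higher with the block (background 8.45%) and 2 without it (background 4.52%). The groups did not overlap for 39 genes. FCN3 was the higher in 37 of these (background 28.0%) and the lower in 2, RPS15 and RPS26 (background 26.5%).

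**Figure D2:**
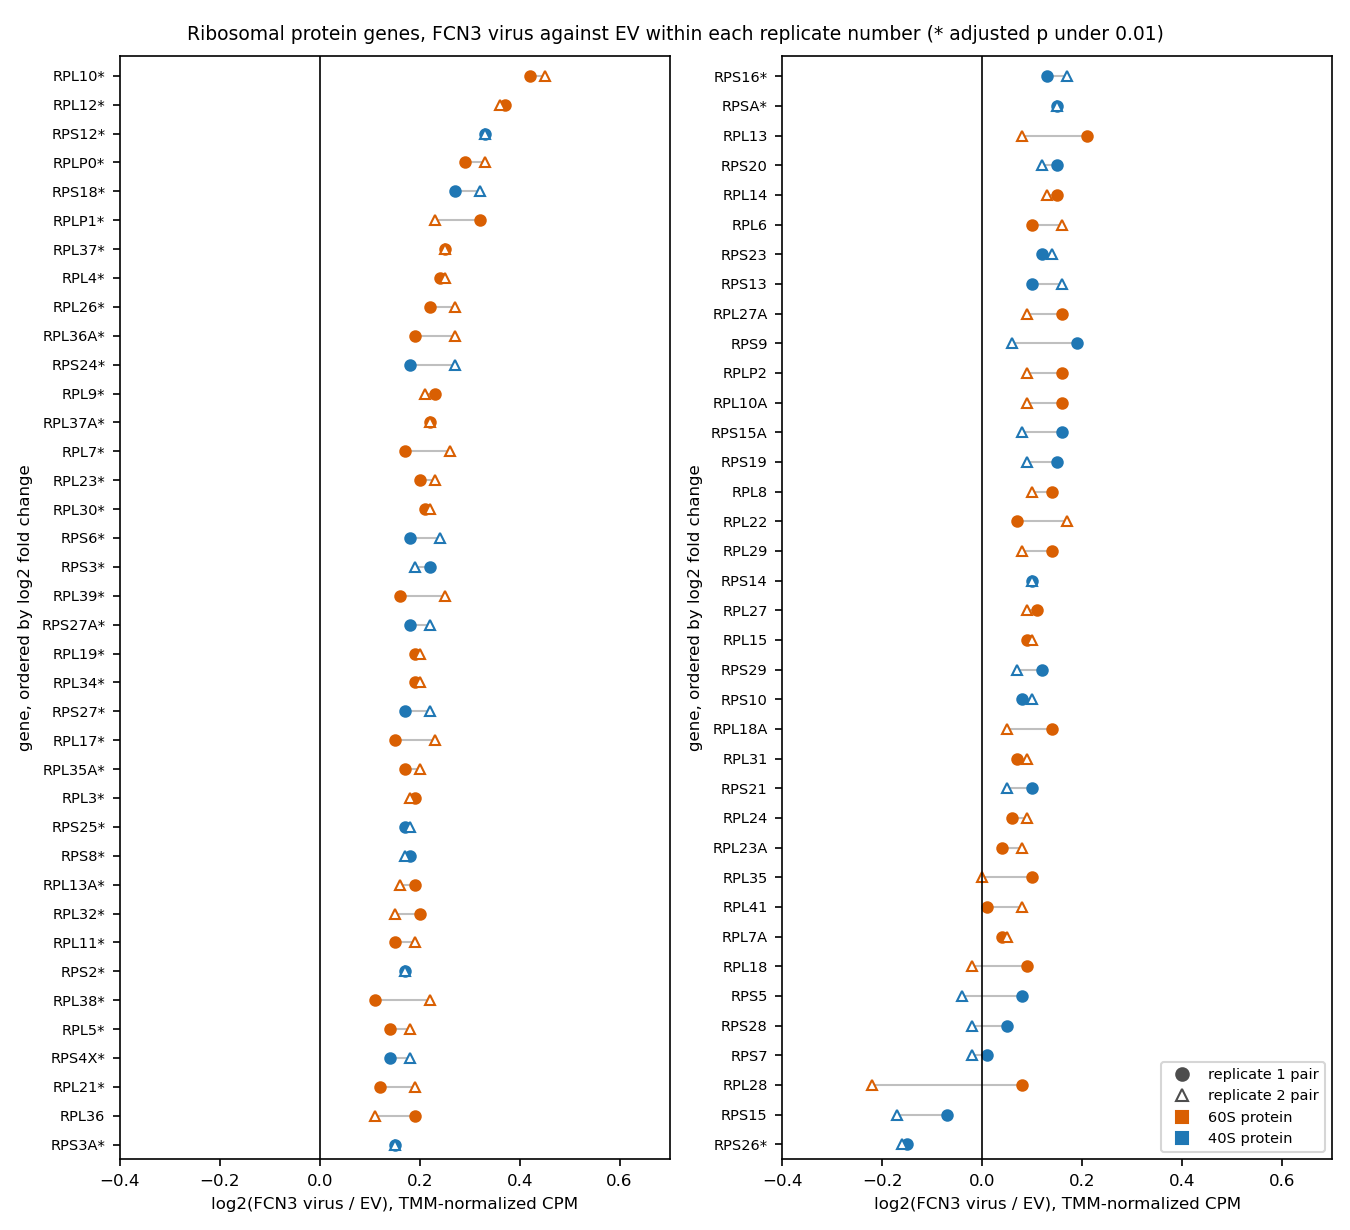
Log2 ratio of FCN3 virus to EV for 75 of the genes within replicate 1 (filled circles) and within replicate 2 (open triangles), on the scale of TMM-normalized CPM, with 60S proteins in orange, 40S proteins in blue and an asterisk for an adjusted p under 0.01 in the paired fit. Most genes lie between 0 and 0.3 in both pairs, RPL10 and RPL12 lie highest, and RPS26 and RPS15 lie below 0 in both.

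**Figure D3:**
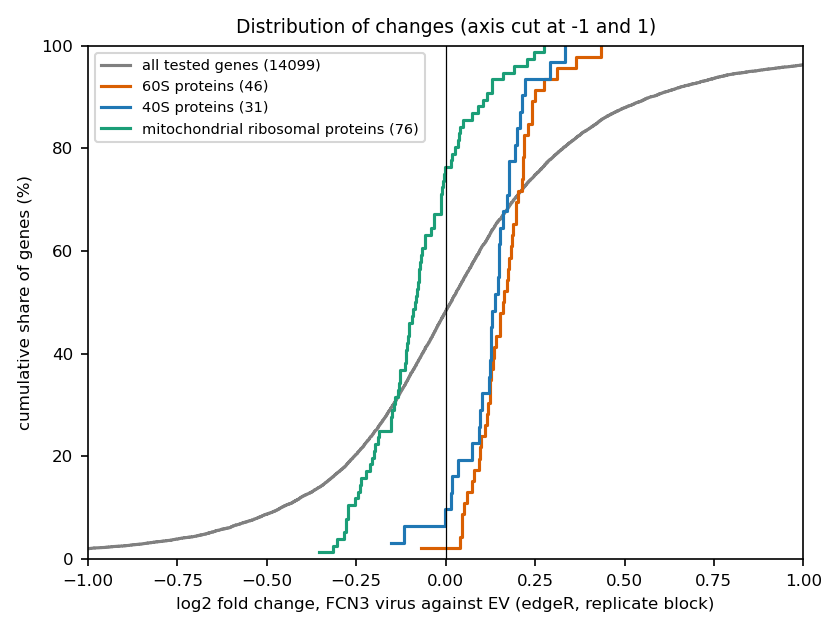
Cumulative share of genes (%) against the log2 fold change from the paired fit, for all 14099 tested genes (grey), 60S proteins (orange), 40S proteins (blue) and mitochondrial ribosomal proteins (green); 1 point is 1 gene, and genes beyond −1 and 1 are off the axis. The cytosolic curves are steep and lie right of 0 (medians 0.16 and 0.14), and the mitochondrial curve lies left of it (median −0.08).

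The gene with the largest rise was RPL10, whose protein joins the large subunit late and sits beside the peptidyl transferase centre (GRCh37 chrX:153618315-153637504, plus strand). It was at 1289 and 1151 counts per 1000000 (CPM, TMM-normalized) in EV replicates 1 and 2 and at 1721 and 1575 in FCN3. Each FCN3 value lay above each EV value. The log2 fold change was 0.43 ± 0.05 (SE, n = 2 per group, adjusted p = 7.4e-11, edgeR paired), and the adjusted p without the block was 0.0727.

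RPL12, at the base of the stalk where translation factors bind (chr9:130209953-130213685, minus strand), was at 847 and 841 CPM in EV and 1092 and 1080 in FCN3. Here the replicates nearly coincided within each group. The log2 fold change was 0.36 ± 0.05 (SE, n = 2 per group, adjusted p = 7.9e-09, edgeR paired). RPL10 and RPL12 were the 2 genes that DESeq2 called without the block, with adjusted p = 0.00635 and 0.00563.

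The proteins of the P stalk, RPLP0, RPLP1 and RPLP2, recruit the elongation factors to the large subunit. RPLP0, the scaffold of the stalk (chr12:120634502-120639038, minus strand), was at 2223 and 2112 CPM in EV and 2721 and 2656 in FCN3, and rose by 0.31 ± 0.05 on the log2 scale (SE, n = 2 per group, adjusted p = 4.7e-07, edgeR paired). RPLP1 was at 1191 and 1312 CPM in EV and 1490 and 1535 in FCN3, with a log2 fold change of 0.27. RPLP2, with which RPLP1 pairs, was at 428 and 397 CPM in EV and 477 and 423 in FCN3. The groups did not overlap for RPLP0 and RPLP1 and overlapped for RPLP2, whose log2 fold change of 0.12 was not called (adjusted p = 0.0338, edgeR paired).

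Around the exit tunnel of the large subunit, 5 of 8 genes rose in the paired fit (RPL4, RPL26, RPL39, RPL19 and RPL17). RPL31, RPL35 and RPL23A were not called, and the median log2 fold change of the 8 was 0.19. Among all 77 genes, 51.9% were called higher (background 19.1%). RPL4, which lines the tunnel, was at 2502 and 2865 CPM in EV and 2950 and 3401 in FCN3 (log2 fold change 0.24). RPL26, at the tunnel's mouth, was at 929 and 846 CPM in EV and 1081 and 1017 in FCN3 (0.24). RPL39, deep in the tunnel, was at 534 and 398 CPM in EV and 595 and 473 in FCN3 (0.20). The groups stood apart for RPL4 and RPL26, while for RPL39 the spread between replicate numbers exceeded the difference between viruses. RPL35 was at 552 and 546 CPM in EV and 592 and 546 in FCN3, with equal values in replicate 2. RPL37, a small rRNA-binding protein of the large subunit and among the 8 largest rises, was at 656 and 698 CPM in EV and 779 and 831 in FCN3 (0.25).

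In the small subunit, RPS12, a protein of the beak (chr6:133135708-133138703, plus strand), was at 510 and 397 CPM in EV and 642 and 501 in FCN3. The lower FCN3 library lay below the higher EV library, although the ratio was 0.33 on the log2 scale in both pairs (SE 0.05, n = 2 per group, adjusted p = 7.8e-08, edgeR paired; 0.3 without the block). RPS18, in the head of the subunit, was at 845 and 673 CPM in EV and 1019 and 838 in FCN3 (0.29) and overlapped likewise.

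RPS2, RPS3, RPS10 and RPS20 carry the ubiquitin marks that cells place on stalled 40S subunits. RPS2 was at 2363 and 2397 CPM in EV and 2668 and 2696 in FCN3, and RPS3 at 1333 and 1139 in EV and 1554 and 1301 in FCN3. These 2 of the 4 genes rose in the paired fit, by 0.17 and 0.21 on the log2 scale. Of the 77 genes, 51.9% were called higher (background 19.1%). Only RPS2 of these 2 had groups that did not overlap. RPS10 (0.09, adjusted p = 0.117) and RPS20 (0.14, adjusted p = 0.0166) were not called.

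RPS26, which lies where the mRNA leaves the small subunit (chr12:56435135-56438481, plus strand), was the gene called lower. It was at 290 and 294 CPM in EV and 261 and 263 in FCN3, so the groups stood apart with little spread in either. Its log2 fold change was −0.15 ± 0.05 (SE, n = 2 per group, adjusted p = 0.00951, edgeR paired), close to the threshold, and DESeq2 with the block gave an adjusted p of 0.0812. RPS15, whose tail reaches the decoding centre, was at 319 and 344 CPM in EV and 304 and 307 in FCN3 (−0.12, adjusted p = 0.0513). RPL28, a protein of the large subunit, was at 548 and 735 CPM in EV and 579 and 632 in FCN3 and changed in opposite directions in the 2 pairs (0.08 and −0.22). RPS7 was at 1074 and 885 CPM in EV and 1083 and 875 in FCN3, the change closest to 0 among the 77.

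Of 9 genes for proteins that bind MDM2, 7 rose in the paired fit and RPS7 and RPS14 were not called. The median log2 fold change of the 9 was 0.18. The share called higher was 51.9% over the 77 genes (background 19.1%), and the difference from it was not tested. RPL5 and RPL11 bind MDM2 together with 5S rRNA. RPL5 was at 685 and 638 CPM in EV and 757 and 721 in FCN3 (0.16), and RPL11 at 569 and 539 CPM in EV and 631 and 617 in FCN3 (0.17). In both genes the groups stood apart. The others that rose were RPL26 (0.24), RPL23 (0.22), RPS3 (0.21), RPS27A (0.20) and RPS25 (0.18). MDM2 itself was at 168 and 116 CPM in EV and 360 and 304 in FCN3, and rose by 1.24 ± 0.06 on the log2 scale (SE, n = 2 per group, adjusted p = 1.5e-25, edgeR paired; 0.0275 without the block). Its relative MDM4 (0.25, adjusted p = 0.0232) was not called.

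Among genes whose mutation causes Diamond-Blackfan anaemia, an inherited failure of red cell production, RPS24 (0.22), RPL35A (0.19), RPL11 and RPL5 rose in the paired fit. RPS26 fell, and RPS19 (0.12), RPS10 and RPS7 were not called. Over all 77 genes, 51.9% were called higher (background 19.1%). RPS24 was at 930 and 922 CPM in EV and 1052 and 1109 in FCN3, and RPS19 at 1254 and 1250 in EV and 1395 and 1328 in FCN3. Both had groups that did not overlap.

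RPS27A and FAU encode ribosomal proteins made as fusions with ubiquitin and with a ubiquitin-like protein, and FAU is outside the 77 because of its symbol. RPS27A was at 920 and 770 CPM in EV and 1041 and 899 in FCN3 (0.20), and FAU, for RPS30, at 252 and 224 in EV and 283 and 252 in FCN3 (0.17). Both rose in the paired fit.

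For 7 of the genes the annotation also holds a near-identical copy or a read-through gene, and the authors' counting divides reads that fit both. Between 94.9% and 100% of the summed counts belonged to the gene itself. Summing each pair, which was done after seeing the data, moved the log2 fold change of these 7 by no more than the standard error.

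The replicate number also separated the libraries in these genes. In the same fit, 24 of the 77 genes were lower in replicate 2 (background 10.5%) and 4 were higher (background 11.7%), with a median log2 difference of −0.09 and a range of −0.72 to 0.29. RPS15A was at 583 and 363 CPM in EV and at 653 and 385 in FCN3 (replicate 1, replicate 2), a log2 difference of −0.72 (adjusted p = 2.9e-17, edgeR). RPS21 was at 267 and 169 CPM in EV and 286 and 175 in FCN3 (−0.68), and RPS29 at 216 and 143 in EV and 234 and 151 in FCN3 (−0.61). In these 3 genes replicate 2 was the lower under either virus. RPL27 (−0.60), RPS3A (−0.48) and RPL9 (−0.46) were likewise lower, and RPL28 (0.27) was among the 4 that were higher in replicate 2. Across the 77 genes, the replicate difference in EV and that in FCN3 had a Pearson's r of 0.73. Over the 8309 tested genes with an average log2 CPM above 4 it was 0.81. Points share the libraries and their depth.

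**Figure D4:**
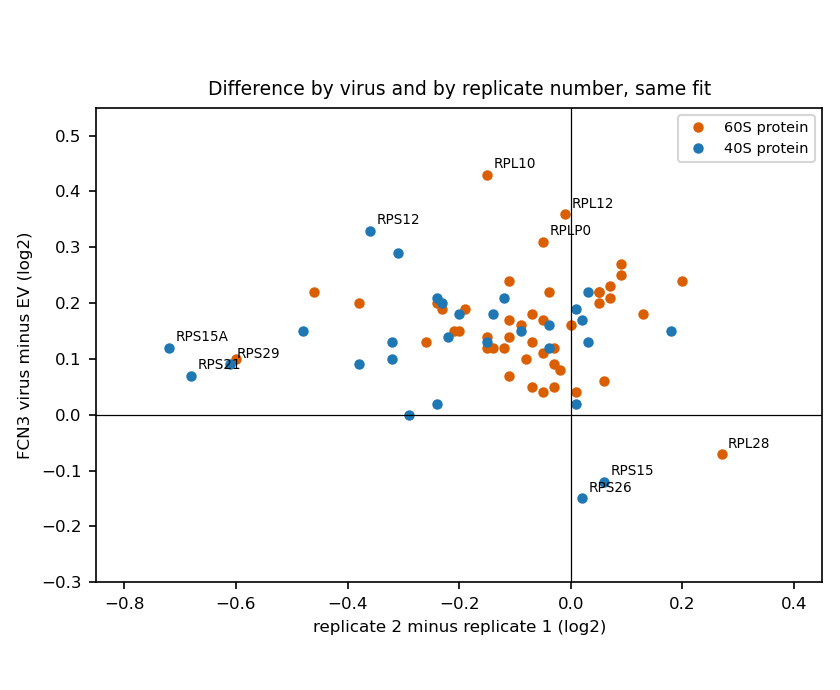
Log2 difference between FCN3 virus and EV (vertical axis) against the log2 difference between replicate 2 and replicate 1 (horizontal axis) for 75 of the genes, both from the same edgeR fit, with 60S proteins in orange and 40S proteins in blue. Differences by replicate number reach −0.72 (RPS15A) and spread over a wider range than differences by virus, which run from −0.15 (RPS26) to 0.43 (RPL10).

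The size of the shift depended on how libraries were scaled. The median over the 77 genes was 0.09 when counts were scaled by library totals alone, where 11 genes were called higher (14.3%, background 15.5%) and 2 lower (background 23.4%). The share called higher was then no larger than that of all tested genes. With TMM factors set without the ribosomal protein genes and FCN3 it was 0.13 (24 higher, background 18.1%, and 1 lower, background 18.7%). On log2(TPM + 1), limma with the block gave a median of 0.04, and 57 of 77 genes were above 0. There 4 genes were called higher (background 10.2%) and 2 lower (background 22.3%). The added 1 makes changes smaller for low genes, and the lowest TPM among the 77 genes in any library was 248. FCN3 RNA itself held 41618 and 44730 TPM in the FCN3 libraries, within a sum that TPM fixes for every library. Relative to the median of all tested genes the ribosomal protein genes were 0.12 to 0.14 higher under the 15 alternative settings that kept the 4 libraries, and 0.05 to 0.2 higher when 1 library was left out. Of all tested genes called, 52.7% were higher in the paired fit, against 76.5% without the block, 39.8% with library totals and 31.4% with TPM.

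**Figure D5:**
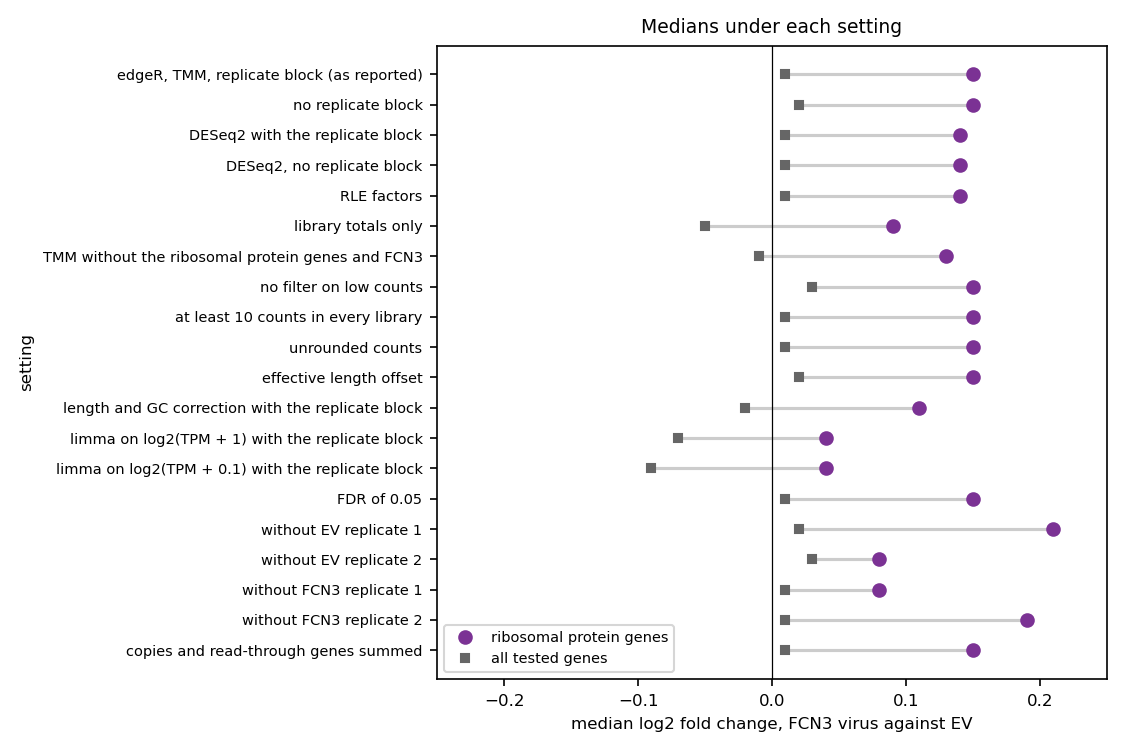
Median log2 fold change (FCN3 virus against EV) of the 77 ribosomal protein genes (purple circles) and of all tested genes (grey squares) under each processing setting, 1 line per setting. The circle lies right of the square and of 0 in every line, between 0.04 with TPM and 0.21 without EV replicate 1.

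Other short and other abundant mRNAs were set beside these genes. The 860 tested genes shorter than 1000 bases, without the 77, had a median log2 fold change of −0.00. Of these 860, 114 were called higher (background 19.1%) and 116 lower (background 17.1%) in the paired fit. The 470 genes with a mean of at least 250 TPM, again without the 77, had a median of −0.06. Of these 470, 105 were called higher (background 19.1%) and 168 lower (background 17.1%). Within the 77 genes the log2 fold change had a Pearson's r of 0.13 with log2 length, −0.23 with GC content and 0.17 with log2 mean TPM, as a description over genes that share the libraries. Among the 52 genes with 1 promoter entry, 45 had a pyrimidine run of at least 8, with a median of 0.13. The median of the 7 without was 0.16. Of these, 21 of the 45 and 5 of the 7 were called higher, against 51.9% of the 77 (background 19.1%). RPL12, with a run of 6, was near the top, and RPL7A, with a run of 25, was at 1707 and 1651 CPM in EV and 1760 and 1704 in FCN3 (0.04, adjusted p = 0.472). The run was counted anywhere in the 30-base window, so this split does not separate genes with a TOP tract from genes without. At RPL12 the run of 6 began with a C at the annotated start. At RPL27 the run of 10 began only at base 11, counting the start as 1.

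Among 17 other mRNAs known to carry a TOP tract, 9 rose in the paired fit (background 19.1%) and 1 fell (background 17.1%). The median log2 fold change of the 17 was 0.17. TPT1, the translationally controlled tumour protein, was at 926 and 759 CPM in EV and 1186 and 1034 in FCN3 (0.40). The elongation factor EEF1A1, the most abundant of them in CPM, was at 8499 and 8063 CPM in EV and 10097 and 9869 in FCN3 (0.27). In both the groups stood apart. EEF1B2 (0.28), PABPC1 (0.27), EEF2 (0.25), EIF3F (0.23), GNB2L1 (0.21), EEF1G (0.17) and FAU were the others that rose, and HNRNPA1, an RNA-binding protein, was at 1449 and 1323 CPM in EV and 1254 and 1175 in FCN3 and fell by 0.19 (adjusted p = 9.3e-04, edgeR paired).

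The 76 tested mitochondrial ribosomal protein genes, which are not counted among TOP mRNAs, had a median log2 fold change of −0.08. In the paired fit, 3 of the 76 were called higher (background 19.1%) and 17 lower (background 17.1%). MRPS10 (0.28) and MRPL45 (0.25) had the largest rises. MRPL20 was at 62.3 and 61.2 CPM in EV and 51.6 and 44.8 in FCN3 (−0.35), and MRPL34 at 28.3 and 29 in EV and 23.8 and 22.1 in FCN3 (−0.31), the largest falls.

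Of 8 paralogs of ribosomal protein genes, 6 were tested. RPL36AL, a copy of RPL36A that is used in most tissues, was at 163 and 186 CPM in EV and 215 and 250 in FCN3 (0.41, adjusted p = 2.2e-09, edgeR paired), with groups that did not overlap, beside 0.23 for RPL36A. RPL22L1 was at 112 and 70.1 CPM in EV and 142 and 85 in FCN3 (0.31), overlapping between groups. RPS27L was at 194 and 193 CPM in EV and 220 and 220 in FCN3 (0.19). These 3 of the 6 rose in the paired fit (background 19.1%). RPL39L (−0.24, adjusted p = 0.0169, edgeR paired), RPL7L1 (0.03) and RPL26L1 (0.05) were not called. RPL10L was at 0 in every library and RPL3L did not exceed 0.0597 CPM, under the floor of 3 counts.

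Of 7 chaperones that carry new ribosomal proteins to assembling subunits, 0 rose (background 19.1%) and 2 fell (background 17.1%) in the paired fit. The median log2 fold change of the 7 was −0.15. GRWD1, which binds RPL3, was at 159 and 151 CPM in EV and 116 and 109 in FCN3 (−0.46, adjusted p = 4.0e-10, edgeR paired; 0.0378 without the block). TSR2, which carries RPS26, was at 53 and 58.3 CPM in EV and 43.4 and 47.5 in FCN3 (−0.29). In both the groups stood apart. BCCIP (−0.15), LTV1 (−0.15), HEATR3 (−0.02), PDCD2 (0.08) and PDCD2L (0.17) were not called.

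Of 10 regulators of TOP mRNAs, 1 rose (background 19.1%) and 4 fell (background 17.1%) in the paired fit. EIF4EBP1, a repressor of cap-dependent translation that mTOR inactivates, was at 77.7 and 87 CPM in EV and 137 and 158 in FCN3 and rose by 0.84 ± 0.06 on the log2 scale (SE, n = 2 per group, adjusted p = 1.7e-18, edgeR paired; 0.0182 without the block). Its relative EIF4EBP2 was at 69.9 and 61.9 CPM in EV and 58.4 and 49.3 in FCN3 (−0.29). The S6 kinases RPS6KB1 (−0.20) and RPS6KB2 (−0.25) and the TOP-binding protein TIA1 (−0.39) also fell. LARP1 (0.12, adjusted p = 0.0338), LARP4 (0.05), MTOR (0.11), RPTOR (−0.08) and TIAL1 (0.06) were not called.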

How the data were processed

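RNA-seq libraries of A549 cells (2 EV, 2 FCN3 virus) were grouped by their labels. The authors prepared stranded mRNA libraries, aligned the reads to hg19 with STAR 2.6.1d and ran RSEM. Its expected counts were deposited per gene, as estimated counts with fractions and no normalization. The deposited TPM and FPKM are normalized by RSEM for length and depth, and FPKM was not used here. The annotation version and strand setting are not given in the sources used here, so overlapping and antisense genes are uncertain.

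Rounded expected counts were tested in R 4.3.3 with edgeR 4.0.16 (TMM, filterByExpr, quasi-likelihood test, Benjamini-Hochberg over 14099 genes, threshold 0.01). The replicate number entered as a block (1 residual degree of freedom, 2 without it). The pairing comes from the numbers in the labels only, and the report gives how same-numbered libraries deviated together. Standard errors were derived from the log2 fold change and F (size over root F). Libraries held 16353554 to 35733735 counts, and the floor of 3 counts lay between 0.084 and 0.183 CPM. Floors cover counting error only.

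Alternatives were DESeq2 1.42.0, limma 3.58.1 on TPM, other scalings and filters, a length and GC correction, and each library left out. GC content came from GENCODE transcripts (95.2% of tested genes), gene locations from GENCODE on GRCh37, and start sites from RefSeq on GRCh38.p14. The tests were tried on simulated data. The 77 genes and all lists were chosen with earlier results of these data known. Named were the 8 largest called changes each way, the 5 highest and 5 lowest levels, role lists, and the related genes. Further genes (RPS15, RPL28, RPL7A, and those with large replicate differences) were named after their values were seen. Results for some genes are not reported here by name, though counts and medians include them.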

Additional observations from a re-analysis of the deposited data

How the results depend on the processing

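The replicate block decided the calls. As reported (paired), 40 ribosomal protein genes were higher and 1 lower, of 5103 genes called in all. Without the replicate block these became 0, 0 and 136. DESeq2 gave 19 higher, 0 lower and 2257 in all with the block, and 2, 0 and 1077 without it. Each library left out in turn (a fit without the block, since the block would leave no residual degrees of freedom, with the lone library assumed to vary like the other group) gave 0 to 0 higher, 0 to 0 lower, 92 to 267 genes in all, and a median log2 fold change of 0.08 to 0.21 in place of 0.15. The median was 0.21 without EV replicate 1, 0.08 without EV replicate 2, 0.08 without FCN3 replicate 1 and 0.19 without FCN3 replicate 2. Library totals gave 11 higher, 2 lower and a median of 0.09. TMM without the ribosomal protein genes and FCN3 gave 24 higher and a median of 0.13, and the length and GC correction with the block 26 and 0.11. On log2(TPM + 1) there were 4 higher, 2 lower and a median of 0.04, and on log2(TPM + 0.1) 3, 2 and 0.04. No filter on low counts and the effective length offset each left 0 lower. The share of TPM differed by 0.753 percentage points, where the ranges overlapped. RPL39 ran from −0.01 without EV replicate 2 to 0.43 without EV replicate 1, and RPL22L1 from −0.11 without FCN3 replicate 1 to 0.71 without EV replicate 1. Genes that were not called changed sign in 64 of the gene-by-setting comparisons. RLE factors, the stricter filter, unrounded counts and an FDR of 0.05 kept the counts within 1.5 times. The cause of these changes was not tested, other than the smaller number of libraries in the fits that left 1 out.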
